A study of Mus musculus with 10 samples.

Results

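A set of 8 genes that mark the primed epiblast and the neural lineage, *Otx2*, *Zic2*, *Pou3f1*, *Hesx1*, *Sox1*, *Olig2*, *Pax6* and *Tubb3*, was followed through the differentiation of mouse embryonic stem cells (ESCs) into in vitro derived primordial germ cells (iPGCs). The genes were taken by symbol from the array's annotation, with every probe set (a group of short probes that reads 1 transcript) that bears the symbol, and they made up 8 of 18193 genes with a symbol and 14 of 45037 probe sets. The arrays were Affymetrix Mouse Genome 430 2.0 arrays, 10 in all, with 2 for each of 5 sorted populations. The iPGCs and the somatic cells came from embryoid bodies (EBs, aggregates that differentiate without LIF) at day 6, and the study asked how the transcripts of iPGCs compare with those of ESCs and of the other EB cells.

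The groups were Oct4-Gfp iPGCs (Oct4-Gfp positive and cKit bright cells of a line of mixed genetic background that carries an *Oct4-gfp* reporter), V6.5 iPGCs (SSEA1 positive and cKit bright cells of the V6.5 line, 129xBL6 F1), Oct4-Gfp somatic cells (Oct4-Gfp negative and cKit negative), V6.5 somatic cells (SSEA1 negative and cKit negative), and undifferentiated V6.5 ESCs (sorted as SSEA1 positive and cKit positive). Undifferentiated ESCs were profiled in V6.5 alone, and iPGCs and somatic cells were set against ESCs within that line only. Line, genetic background and the marker used for the sort change together and cannot be told apart. The ESCs were kept on mouse embryonic fibroblast feeders, and RNA of the sorted cells was amplified before labeling. The sources do not say whether the 2 arrays of a group stem from different cultures, and the p-values then measure only the spread between these arrays.

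In the mouse embryo, cells of the inner cell mass pass through a formative to a primed epiblast state before the germ layers form. Primordial germ cells are set aside from the epiblast, while the anterior epiblast turns on neural regulators and gives rise to the neural plate. OTX2 is a homeodomain factor of the epiblast and anterior brain that restrains entry into the germ line in mouse epiblast cells. ZIC2 is a zinc finger factor of the epiblast and neural tube, and POU3F1 (also called OCT6) is a POU factor of the primed epiblast. HESX1 is a homeodomain repressor of the forebrain and pituitary, SOX1 is an early factor of the neural plate, OLIG2 a bHLH factor of motor neuron and oligodendrocyte progenitors, PAX6 a paired-type factor of the eye and forebrain, and *Tubb3* encodes the β-tubulin of neurons.

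The labels were first set beside marker lists, as a description. Of 13 tested germ cell genes, 8 were higher and none lower in V6.5 iPGCs than in V6.5 ESCs (17.3% of all genes higher and 12.9% lower). *Rhox9* was higher by 3.29, *Rhox6* by 2.90 and *Itgb3* by 2.84 on the log2 scale. Against V6.5 somatic cells, 12 were higher in V6.5 iPGCs (27.3% of all genes). Of 17 tested mesoderm and heart genes, 15 were higher in V6.5 somatic cells than in V6.5 ESCs (30.3% of all genes). The paper names *Rhox6*, *Rhox9*, *Id4* and *Itgb3*, and *Tbx20*, *Hand1*, *Msx1* and *Evx1* of the mesoderm list, from these same arrays. From them it also names the member *Hesx1*, with *Klf4*, *Klf5*, *Etv4* and *Fgf17*, in a cluster enriched in ESCs. It places *Fgf15* among genes low in iPGCs and ESCs but not in somatic cells. *Kit* encodes a marker of the sort. The lists are therefore no independent check of the labels. Background, taken as the 95th percentile of 44 olfactory receptor probe sets, lay between 12.6 and 25.4 signal units on the 10 arrays, and 30897 to 33670 probe sets lay above it. RNA quality moved with the groups: the 3′/5′ signal ratio of *Gapdh*, which grows as RNA shortens, was 2.02 to 2.37 in Oct4-Gfp iPGCs, 1.51 to 1.63 in V6.5 iPGCs, 1.65 to 2.05 in Oct4-Gfp somatic cells, 1.73 to 1.74 in V6.5 somatic cells, and 1.28 to 1.30 in ESCs. Its part in the results, whether against ESCs or between the lines, was not tested.

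The members fell into 3 patterns. *Otx2* and *Zic2* were not called different between V6.5 iPGCs and ESCs, and they were several-fold higher in iPGCs than in somatic cells of both lines. *Hesx1*, *Olig2*, *Sox1* and *Tubb3* were called lower in V6.5 iPGCs than in ESCs, and the first 3 of these lay at background in all 4 somatic arrays. The call of *Sox1* was lost under most alternatives, and its second probe set stayed below background on every array. *Pou3f1* was far apart in the 2 V6.5 iPGC arrays and passed the test in no comparison, and *Pax6* was too low to be tested.

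The stretches of genome around the transcription starts of the 4 genes called lower in V6.5 iPGCs (*Sox1* not firmly) are shown. Their make-up can so be set beside the values, and 1 of the 4 starts of *Otx2* is added as a gene that was not lower. They are RefSeq windows of GRCm38.p6 from 250 bases before to 50 bases after the start, written 5′ to 3′ on the strand of the gene. Capitals mark matches, on either strand, to the octamer ATGCAAAT of POU factors, the bicoid-type site TAATCC of OTX factors, the SOX site ATTGTT, the TATA box TATAAA and CCAAT. No 2 of these motifs overlap in the windows shown. *Hesx1* lies at chr14:27000112-27000411 (plus strand), *Olig2* at chr16:91225300-91225599 (plus), *Sox1* at chr8:12395269-12395568 (plus), *Tubb3* at chr8:123411303-123411602 (plus), and the third listed start of *Otx2* at chr14:48665060-48665359 (minus).
Hesx1: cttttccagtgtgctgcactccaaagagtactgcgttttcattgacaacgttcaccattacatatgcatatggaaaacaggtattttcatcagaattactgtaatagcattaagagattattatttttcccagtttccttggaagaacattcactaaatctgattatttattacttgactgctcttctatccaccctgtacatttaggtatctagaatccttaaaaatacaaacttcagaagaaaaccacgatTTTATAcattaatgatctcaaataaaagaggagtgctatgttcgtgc
Olig2: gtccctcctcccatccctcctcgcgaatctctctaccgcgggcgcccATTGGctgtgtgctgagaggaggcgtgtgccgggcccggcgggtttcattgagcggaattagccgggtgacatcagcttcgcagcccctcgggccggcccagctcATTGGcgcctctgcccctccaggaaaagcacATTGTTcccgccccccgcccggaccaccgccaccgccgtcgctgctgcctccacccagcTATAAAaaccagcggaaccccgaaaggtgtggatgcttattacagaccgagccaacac
Sox1: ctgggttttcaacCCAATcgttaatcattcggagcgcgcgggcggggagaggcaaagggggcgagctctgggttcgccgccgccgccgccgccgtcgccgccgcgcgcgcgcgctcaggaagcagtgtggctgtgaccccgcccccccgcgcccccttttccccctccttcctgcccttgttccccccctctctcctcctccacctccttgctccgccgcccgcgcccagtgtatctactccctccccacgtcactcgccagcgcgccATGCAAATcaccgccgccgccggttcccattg
Tubb3: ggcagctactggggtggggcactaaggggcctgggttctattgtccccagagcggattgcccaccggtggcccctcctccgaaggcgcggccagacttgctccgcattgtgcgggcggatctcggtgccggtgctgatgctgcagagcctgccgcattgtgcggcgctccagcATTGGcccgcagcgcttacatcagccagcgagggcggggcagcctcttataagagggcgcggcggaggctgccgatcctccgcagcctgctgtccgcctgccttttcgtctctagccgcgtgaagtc
Otx2: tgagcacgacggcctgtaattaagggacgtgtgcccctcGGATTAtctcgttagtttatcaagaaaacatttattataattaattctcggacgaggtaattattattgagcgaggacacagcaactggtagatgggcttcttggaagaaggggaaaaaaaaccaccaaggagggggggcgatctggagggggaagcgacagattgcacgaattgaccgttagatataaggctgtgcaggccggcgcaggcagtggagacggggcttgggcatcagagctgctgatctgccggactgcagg
The octamer occurs in the *Sox1* window, at bases 19 to 26 after the start, and in 1.74% of 32851 mouse windows of the same length. The *Olig2* window holds a SOX site (10.7% of all windows), a TATA box (13.6%) and 2 CCAAT matches (37.4% of windows hold at least 1). *Hesx1* has a TATA box sequence on its minus strand just after the start, *Tubb3* 1 CCAAT match, and the *Otx2* window, chosen after its match was seen, 1 bicoid-type match (7.06%). Of the 8 genes, 6 were matched to 10 windows, and *Pou3f1* and *Zic2* were not among them. A match is a description of the letters, not a binding site or a cause.

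**Figure D1:**
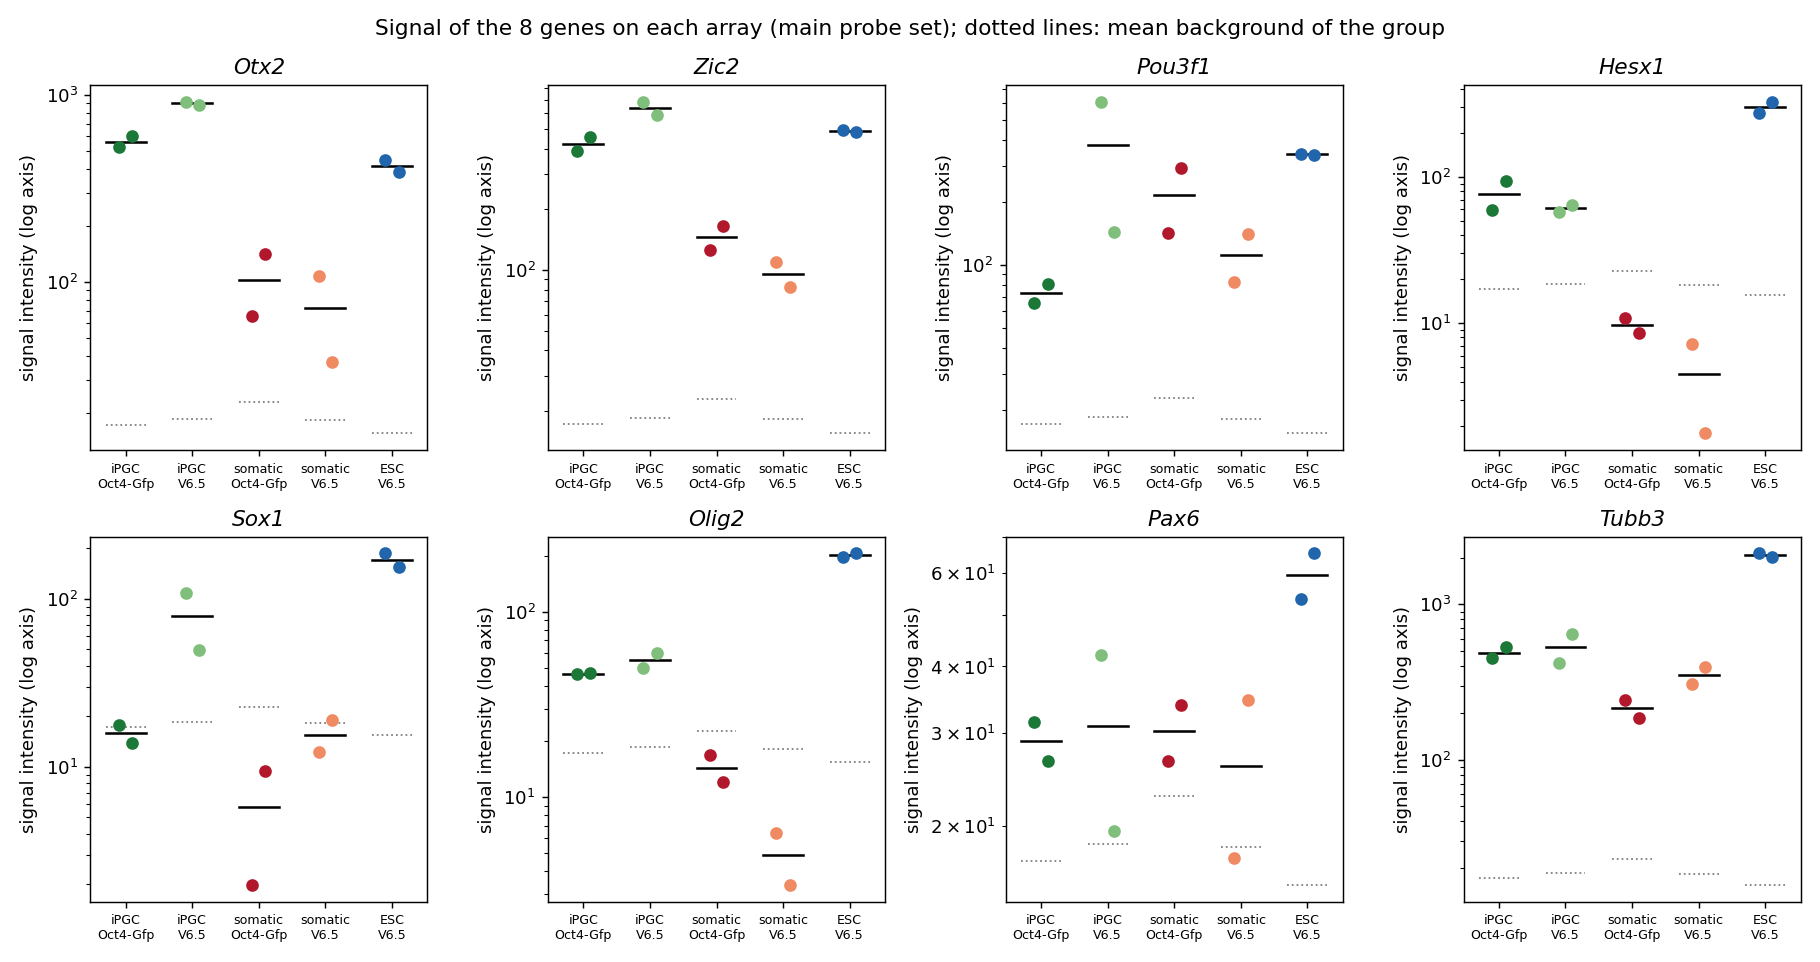
Signal intensity of the main probe set of each of the 8 genes on each of the 10 arrays (points, log axis, 2 arrays a group), with the group mean (black line) and the mean background of the group (dotted line); groups run from Oct4-Gfp iPGCs on the left to V6.5 ESCs on the right. *Otx2* and *Zic2* separate iPGCs and ESCs from somatic cells, while *Hesx1*, *Olig2* and *Tubb3* are highest in the ESC arrays.

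Among the factors of the epiblast, *Otx2* (probe set 1425926_a_at, chromosome 14) had a signal of 522 and 600.4 in Oct4-Gfp iPGCs, 919 and 878 in V6.5 iPGCs, 65.7 and 140.1 in the Oct4-Gfp somatic cells, 108 and 37.4 in V6.5 somatic cells, and 448 and 387 in ESCs. Both V6.5 iPGC arrays were the highest of the 10, no iPGC array overlapped an ESC array, and the somatic groups overlapped each other. The difference between V6.5 iPGCs and ESCs was 1.08 (log2, 95% interval 0.13 to 2.04) and did not pass the test (limma adjusted p = 0.0867). Over 20 alternatives the adjusted p ran from 0.0289 to 0.263, and 4 of them passed, among them the fits without either V6.5 somatic array (0.0396 and 0.0395). Between V6.5 iPGCs and V6.5 somatic cells *Otx2* was higher by 3.51 ± 0.41 (log2, SE, adjusted p = 0.000298), or 11.4-fold, and V6.5 somatic cells were lower than ESCs by 5.39-fold (adjusted p = 0.00150). Without replicate 1 of the V6.5 somatic cells these differences were 4.13 and -3.05 on the log2 scale, and without replicate 2 they were 2.89 and -1.81, each of which passed. In the Oct4-Gfp line, iPGCs were 5.15-fold higher than somatic cells (adjusted p = 0.00227).

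*Zic2* (1421301_at, chromosome 14) followed *Otx2* most closely of the members, with r = 0.97 over the 10 arrays, which share 5 populations. Its signal was 391 and 457 in Oct4-Gfp iPGCs, 684 and 589 in V6.5 iPGCs, 126 and 165 in the Oct4-Gfp somatic cells, 109 and 82.6 in V6.5 somatic cells, and 495 and 484 in ESCs. The order by mean was therefore V6.5 iPGCs, ESCs, Oct4-Gfp iPGCs and then the somatic groups, with no overlap between neighbors. V6.5 iPGCs differed from ESCs by 0.37 (95% interval -0.06 to 0.79, limma adjusted p = 0.174), which the test did not call. V6.5 iPGCs were 5.90-fold higher than V6.5 somatic cells (2.56 ± 0.18, SE, adjusted p = 2.9e-05), Oct4-Gfp iPGCs were 2.75-fold higher than their somatic cells (adjusted p = 0.000455), and V6.5 somatic cells were 4.58-fold lower than ESCs (adjusted p = 4.19e-05).

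*Pou3f1* was read by 2 probe sets on chromosome 4. The brighter (1460038_at) gave 65.3 and 80.8 in Oct4-Gfp iPGCs, 610.4 and 144 in V6.5 iPGCs, 142 and 292 in the Oct4-Gfp somatic cells, 82.8 and 140.3 in V6.5 somatic cells, and 340.5 and 339 in ESCs. The 2 V6.5 iPGC arrays stood 4.24-fold apart, on either side of the ESC arrays, while the ESC arrays were almost equal. The difference between V6.5 iPGCs and ESCs was -0.17 (95% interval -1.54 to 1.20, limma adjusted p = 0.853). It was -1.16 without replicate 1 of the V6.5 iPGCs and 0.82 without replicate 2, so its direction rests on 1 array. The lower probe set (1422068_at) did not pass the filter on low values. It gave 14.9 and 16.2 in Oct4-Gfp iPGCs (below background), 65.7 and 39.9 in V6.5 iPGCs, and 58.5 and 44.6 in ESCs, with the same V6.5 iPGC array higher, and 22.9 to 48.1 in Oct4-Gfp and 19.2 to 38.5 in V6.5 somatic cells.

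Among the neural regulators, *Hesx1* (1420604_at, chromosome 14) had a signal of 59.7 and 94.2 in Oct4-Gfp iPGCs, 57.6 and 64.4 in V6.5 iPGCs, 10.8 and 8.55 in the Oct4-Gfp somatic cells, 7.19 and 1.77 in V6.5 somatic cells, and 275 and 327 in ESCs. All 4 iPGC arrays lay between the ESC arrays and the somatic arrays, which were below background, and the 2 iPGC lines overlapped. *Hesx1* was 4.16-fold lower in V6.5 iPGCs than in ESCs (-2.06 ± 0.22, log2, SE, limma adjusted p = 0.00106). Against somatic cells below background a bound is given, computed from group means against the background of each array. The adjusted p beside a bound is of the limma difference, not of the bound. V6.5 iPGCs were at least 3.34-fold higher than V6.5 somatic cells (adjusted p = 0.000215), Oct4-Gfp iPGCs at least 3.30-fold higher than their somatic cells (adjusted p = 0.000301), and V6.5 somatic cells at least 16.5-fold lower than ESCs (adjusted p = 5.36e-06).

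*Olig2* (1416232_at, chromosome 16) had the same shape, with r = 0.99 to *Hesx1* over the 10 arrays. Its signal was 45.9 and 46.8 in Oct4-Gfp iPGCs, 49.9 and 60.2 in V6.5 iPGCs, 16.8 and 12.02 in the Oct4-Gfp somatic cells, 6.44 and 3.35 in V6.5 somatic cells, and 197 and 207 in ESCs. The ESC arrays stood above all others, the iPGC arrays came next, and the somatic arrays were below background. *Olig2* was 3.11-fold lower in V6.5 iPGCs than in ESCs (-1.64 ± 0.15, log2, SE, limma adjusted p = 0.000687). It was at least 3.01-fold higher in V6.5 iPGCs than in V6.5 somatic cells and at least 2.04-fold higher in Oct4-Gfp iPGCs than in their somatic cells (adjusted p = 5.28e-05 and 0.000775). V6.5 somatic cells were at least 11.1-fold lower than ESCs (adjusted p = 2.28e-06). In RefSeq the long noncoding RNA *Gm52261* overlaps *Olig2*, and which of the transcripts 1416232_at reads was not tested.

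*Sox1* was read on chromosome 8 by 1438729_at, which gave 17.8 and 13.9 in Oct4-Gfp iPGCs, 108 and 49.9 in V6.5 iPGCs, 1.98 and 9.51 in the Oct4-Gfp somatic cells, 12.2 and 19.0 in V6.5 somatic cells, and 187 and 155 in ESCs. The V6.5 iPGC arrays lay below both ESC arrays and above background, whereas the Oct4-Gfp iPGC arrays lay at background, 1 of them just above it. *Sox1* was 2.07-fold lower in V6.5 iPGCs than in ESCs (-1.05 ± 0.31, log2, SE, limma adjusted p = 0.0415), a call that was lost under 12 of 19 alternatives. Among these were the fits without either ESC array, without replicate 2 of the V6.5 iPGCs (-0.58, adjusted p = 0.161) and without single arrays of groups outside the comparison. *Sox1* was higher in V6.5 iPGCs than in V6.5 somatic cells by 1.56 on the log2 scale (95% interval 0.84 to 2.29, limma adjusted p = 0.00448). The bound there was 4.04-fold, from V6.5 iPGC arrays of 108 and 49.9. *Sox1* was at least 9.32-fold lower in V6.5 somatic cells than in ESCs (adjusted p = 0.000242). In the Oct4-Gfp line iPGCs and somatic cells did not pass the test (adjusted p = 0.151), and no bound above 1 can be given. The second probe set of the gene (1422205_at) stayed between 0.859 and 3.27 on the 10 arrays and never rose above background, so the 2 probe sets disagree. In RefSeq the long noncoding RNA *Sox1ot* overlaps *Sox1*, and which of the transcripts 1438729_at reads was not tested.

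*Pax6* had 5 probe sets on chromosome 2 and none passed the filter, so no test was made. Its brightest (1419271_at) gave 31.4 and 26.6 in Oct4-Gfp iPGCs, 42.1 and 19.6 in V6.5 iPGCs, 26.5 and 33.9 in the Oct4-Gfp somatic cells, 17.4 and 34.6 in V6.5 somatic cells, and 53.5 and 65.4 in ESCs. The ESC arrays were the 2 highest and the other 4 groups overlapped. A second probe set (1437816_at) gave 25.5 to 34.4 in iPGCs and somatic cells other than replicate 2 of the V6.5 somatic cells (18.6), and 35.0 and 42.7 in ESCs. The other 3 were at or near background on most arrays, with 69.6 as the highest value (1452526_a_at in 1 V6.5 iPGC array). In RefSeq the long noncoding RNA *Pax6os1* and the protein-coding gene *Elp4* overlap *Pax6*, and which transcripts these probe sets read was not tested.

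The neuronal tubulin *Tubb3* (1415978_at, chromosome 8) gave 448 and 531 in Oct4-Gfp iPGCs, 419.7 and 641 in V6.5 iPGCs, 243 and 184 in the Oct4-Gfp somatic cells, 308 and 395 in V6.5 somatic cells, and 2137 and 2036 in ESCs. Both ESC arrays were several-fold above the other 8, and the iPGC lines overlapped. *Tubb3* was 3.93-fold lower in V6.5 iPGCs than in ESCs (-1.98 ± 0.23, log2, SE, limma adjusted p = 0.00152) and 5.78-fold lower in V6.5 somatic cells than in ESCs (adjusted p = 6.74e-05). Oct4-Gfp iPGCs were 2.22-fold higher than their somatic cells (adjusted p = 0.00483). The V6.5 pair did not overlap and differed by 0.55 (95% interval 0.01 to 1.10), which did not pass (adjusted p = 0.0893). It passed under 4 of 20 alternatives, 1 of them without replicate 1 of the V6.5 iPGCs (0.85, adjusted p = 0.0240).

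Counted together, 7 of the 8 members passed the filter and were tested, each by 1 probe set. Between V6.5 iPGCs and ESCs, 4 were lower and none higher, where 12.9% of all 12207 tested genes were called lower and 17.3% higher. The median difference was -1.05 over the 7 members and 0.05 over all tested genes. *Olig2* passed the filter only through the 2 ESC arrays, and *Hesx1* and *Sox1* through these and 1 iPGC array, so the count is a description and no support. With no filter the limma adjusted p was 0.00258 for *Hesx1*, 0.00201 for *Olig2*, 0.00355 for *Tubb3* and 0.0723 for *Sox1*. Without either of the ESC arrays the count was 2, since *Olig2* then missed the filter and *Sox1* the threshold.

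In V6.5 somatic cells, 6 of the 7 were lower than in ESCs and none higher, with 31.8% of all genes called lower and 30.3% higher, and the median difference was -2.53 against -0.04 over all genes. *Pou3f1* was the exception, with -1.53 (limma adjusted p = 0.0567). It passed without either V6.5 iPGC array, whose spread enters the fit (adjusted p = 0.00733 and 0.00723). V6.5 iPGCs were higher than V6.5 somatic cells for 5 of the 7 (27.3% of all genes were called higher and 24.2% lower). Oct4-Gfp iPGCs were higher than Oct4-Gfp somatic cells for 5 as well (25.7% of all genes higher and 24.8% lower). The median difference of the members was 1.15 in the Oct4-Gfp line (0.04 over all genes) and 1.83 in V6.5 (0.08 over all genes). *Otx2*, *Zic2*, *Hesx1* and *Olig2* were higher in both lines, *Sox1* passed in V6.5 and *Tubb3* in Oct4-Gfp. *Hesx1*, *Sox1* and *Olig2* passed the filter only through ESC or iPGC arrays, so these counts and medians are a description and no support. With the stricter filter, under which these genes were not tested, 3 members were lower in V6.5 somatic cells than in ESCs. The counts higher in iPGCs than in somatic cells were then 2 in V6.5 and 3 in Oct4-Gfp. The comparisons with ESCs share the ESC arrays, and those with V6.5 somatic cells share the V6.5 arrays. In these sorted populations, fewer cells that hold a transcript and less of it per cell cannot be told apart.

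**Figure D2:**
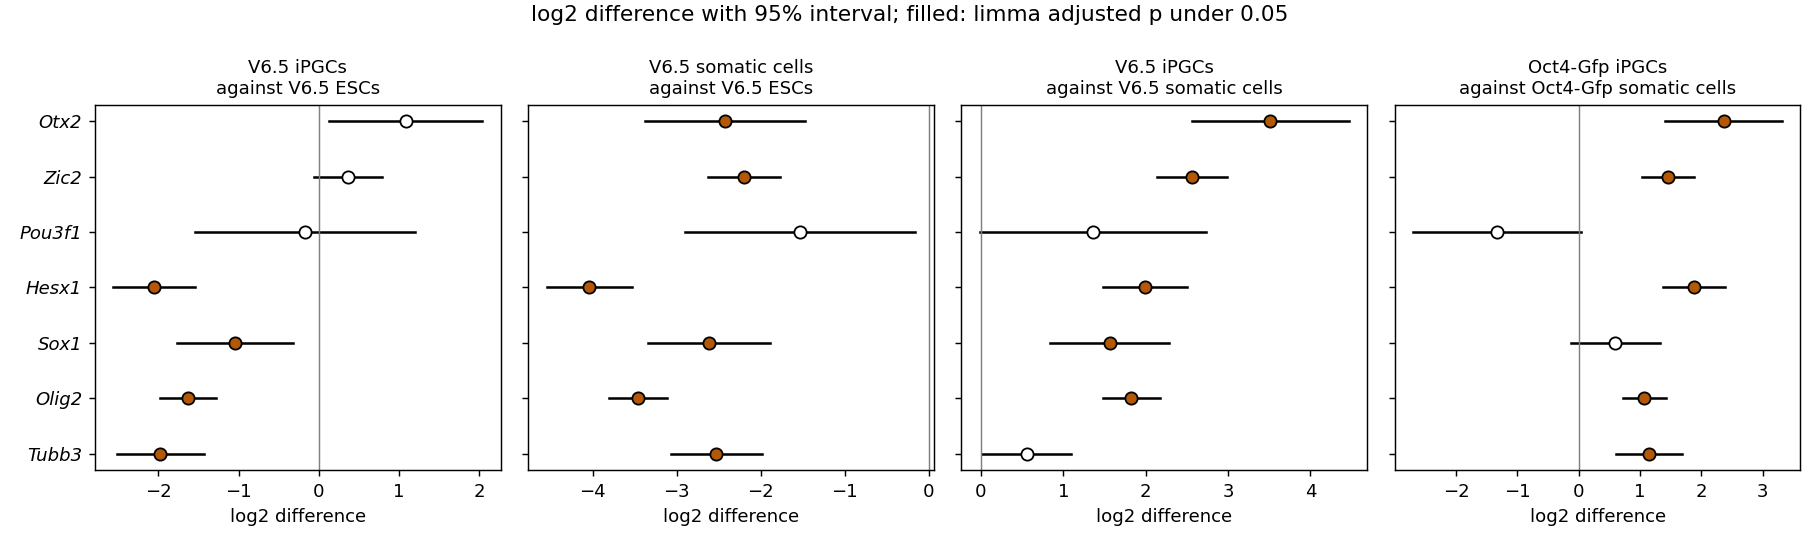
The log2 difference of each of the 7 tested genes in 4 comparisons (x axis), with the limma 95% interval (bars) and filled points where the adjusted p was under 0.05. In V6.5 iPGCs against ESCs, *Otx2* and *Zic2* lie right of 0 and *Hesx1*, *Sox1*, *Olig2* and *Tubb3* left of it, with *Otx2*, *Zic2* and *Pou3f1* unfilled.

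Between the lines, none of the 7 members passed the test, whether in iPGCs (0% of all genes called), in somatic cells (0.0819%) or in the difference between the lines of iPGCs against somatic cells (0.00819%). At an unadjusted p under 0.05 in limma there were 5527 of the 26368 tested probe sets for the iPGC lines. The lack of calls therefore does not show that the lines are alike. For the iPGC lines limma-trend called 1 member, *Sox1* (adjusted p = 0.0469). *Sox1* differed by -1.55 between Oct4-Gfp and V6.5 iPGCs (95% interval -2.27 to -0.82, limma adjusted p = 0.0751), *Pou3f1* by -1.85 (adjusted p = 0.149) and *Zic2* by -0.57 (adjusted p = 0.151). *Otx2* differed by -0.67 and *Olig2* by -0.19 (limma adjusted p = 0.385 and 0.497). *Hesx1* differed by 0.25 (95% interval -0.26 to 0.76) and *Tubb3* by -0.09 (-0.63 to 0.46). RNA quality also differed between the iPGC lines, and its part was not tested. Between the somatic groups, *Zic2* differed by 0.53 and *Tubb3* by -0.68 (adjusted p = 0.321 and 0.316), and *Hesx1*, *Sox1* and *Olig2* were at background in both.

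The families of the members were followed through a list of 22 close relatives, of which 20 had a probe set and 11 were tested. In V6.5 iPGCs against ESCs, 3 of the 11 were lower and none higher, beside 12.9% of all genes lower and 17.3% higher, and the median was -0.14. *Olig1*, which RefSeq places next to *Olig2*, was lower by 1.12 on the log2 scale (limma adjusted p = 0.00350), with 578 and 613 in Oct4-Gfp iPGCs, 364 and 417 in V6.5 iPGCs, and 766 and 975 in ESCs. The other 2 were the β-tubulins *Tubb2b* (-0.57, adjusted p = 0.0237) and *Tubb5* (-0.41, adjusted p = 0.0477). With 1 array left out at a time, *Tubb5* lost its call in 10 of 10 fits, and *Tubb2b* in the 4 without an ESC or a V6.5 iPGC array. *Sox2*, a relative of *Sox1* that ESCs and germ cells need, gave 5587 and 5768 in V6.5 iPGCs and 5243 and 5308 in ESCs. *Zic5*, the neighbor of *Zic2*, gave 1134 and 791 in V6.5 iPGCs and 975 and 827 in ESCs. Both were named after their values were seen, as relatives of a member, and neither passed (adjusted p = 0.867 and 0.807).

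In V6.5 somatic cells against ESCs, 6 of the 11 relatives were lower and 2 higher, beside 31.8% of all genes lower and 30.3% higher. *Olig1* was below background there and at least 47.4-fold lower (limma adjusted p = 8.28e-07), while the log2 difference was -4.996 for *Sox2* and -2.29 for *Zic5* (adjusted p = 3.48e-05 and 5.65e-05). *Zic1*, a factor of the dorsal neural tube and somites, went the other way from its relatives *Zic2* and *Zic5*. It gave 98.2 and 53.4 in Oct4-Gfp somatic cells, 47.5 and 80.5 in V6.5 somatic cells, and 8.60 and 14.03 in ESCs, which were below background. V6.5 somatic cells were at least 4.07-fold higher than ESCs (adjusted p = 0.00250). In V6.5 iPGCs against V6.5 somatic cells 5 of the 11 were higher (27.3% of all genes), among them *Sox2* (5.10), *Zic5* (2.36) and *Olig1* (at least 21.4-fold), and 2 were lower (24.2% of all genes), *Zic1* (at least 3.34-fold) and *Tubb6* (-1.23). The relatives of *Otx2* (*Otx1* and *Crx*) and of *Pou3f1* (*Pou3f2*, *Pou3f3* and *Pou3f4*) did not pass the filter.

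Other genes of the formative and primed epiblast were read from a list of 22, of which 21 were tested. In V6.5 iPGCs against ESCs, 5 of the 21 were higher and 2 lower, where 17.3% of all genes were called higher and 12.9% lower, and the median difference was -0.03 beside 0.05 over all genes. *Fgf5*, a growth factor that marks the primed epiblast, had the largest difference of the list, 4.10 ± 0.71 (log2, SE, limma adjusted p = 0.00589). Its signal was 115 and 88.3 in Oct4-Gfp iPGCs, 1511 and 407 in V6.5 iPGCs, 37.7 and 186 in the Oct4-Gfp somatic cells, 15.9 and 13.1 in V6.5 somatic cells, and 43.7 and 22.5 in ESCs. All 4 iPGC arrays were above the ESC arrays, and the V6.5 iPGC arrays stood above the other 8. Without replicate 1 of the V6.5 iPGCs the difference was 3.18 (adjusted p = 0.0235), and without replicate 2 it was 5.03 (adjusted p = 0.00598).

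The other genes called higher were *Car4* (2.25), the zinc finger gene *Sall2* (1.61), the epithelial factor *Grhl2* (0.90) and *Cdh2* (0.72), which encodes N-cadherin. *Car4*, *Sall2* and *Cdh2* were higher still in V6.5 somatic cells (4.90, 2.98 and 4.80 above ESCs), while *Grhl2* was lower there by 2.90 on the log2 scale. Without replicate 1 of the V6.5 iPGCs the difference from ESCs was 1.57 for *Car4* and 0.89 for *Sall2*, and without replicate 2 it was 2.93 and 2.33. The lower ones were *Etv4*, an ETS factor downstream of FGF signaling (-2.08), and *Fgf15* (-1.34). In V6.5 somatic cells these 2 went opposite ways from ESCs. *Fgf15* gave 1283 to 1314 there and 224 to 241 in ESCs, while *Etv4* gave 110 to 179 and 996 to 998. With 1 array left out, *Fgf5*, *Car4* and *Fgf15* kept an adjusted p under 0.05 in 10 of 10 fits. *Sall2* lost it without either ESC array (adjusted p up to 0.110), *Etv4* without either ESC array or replicate 1 of the V6.5 iPGCs (up to 0.0755), *Cdh2* without any 1 of the 4 arrays compared (up to 0.102) and *Grhl2* in 8 fits (up to 0.190). Replicate 1 of the V6.5 iPGCs, in which *Pou3f1* was high, was more than 2-fold above replicate 2 for 5 of the 21 epiblast genes and more than 2-fold below it for 1. Over all 12207 tested genes these shares were 1.43% and 1.46%.

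**Figure D3:**
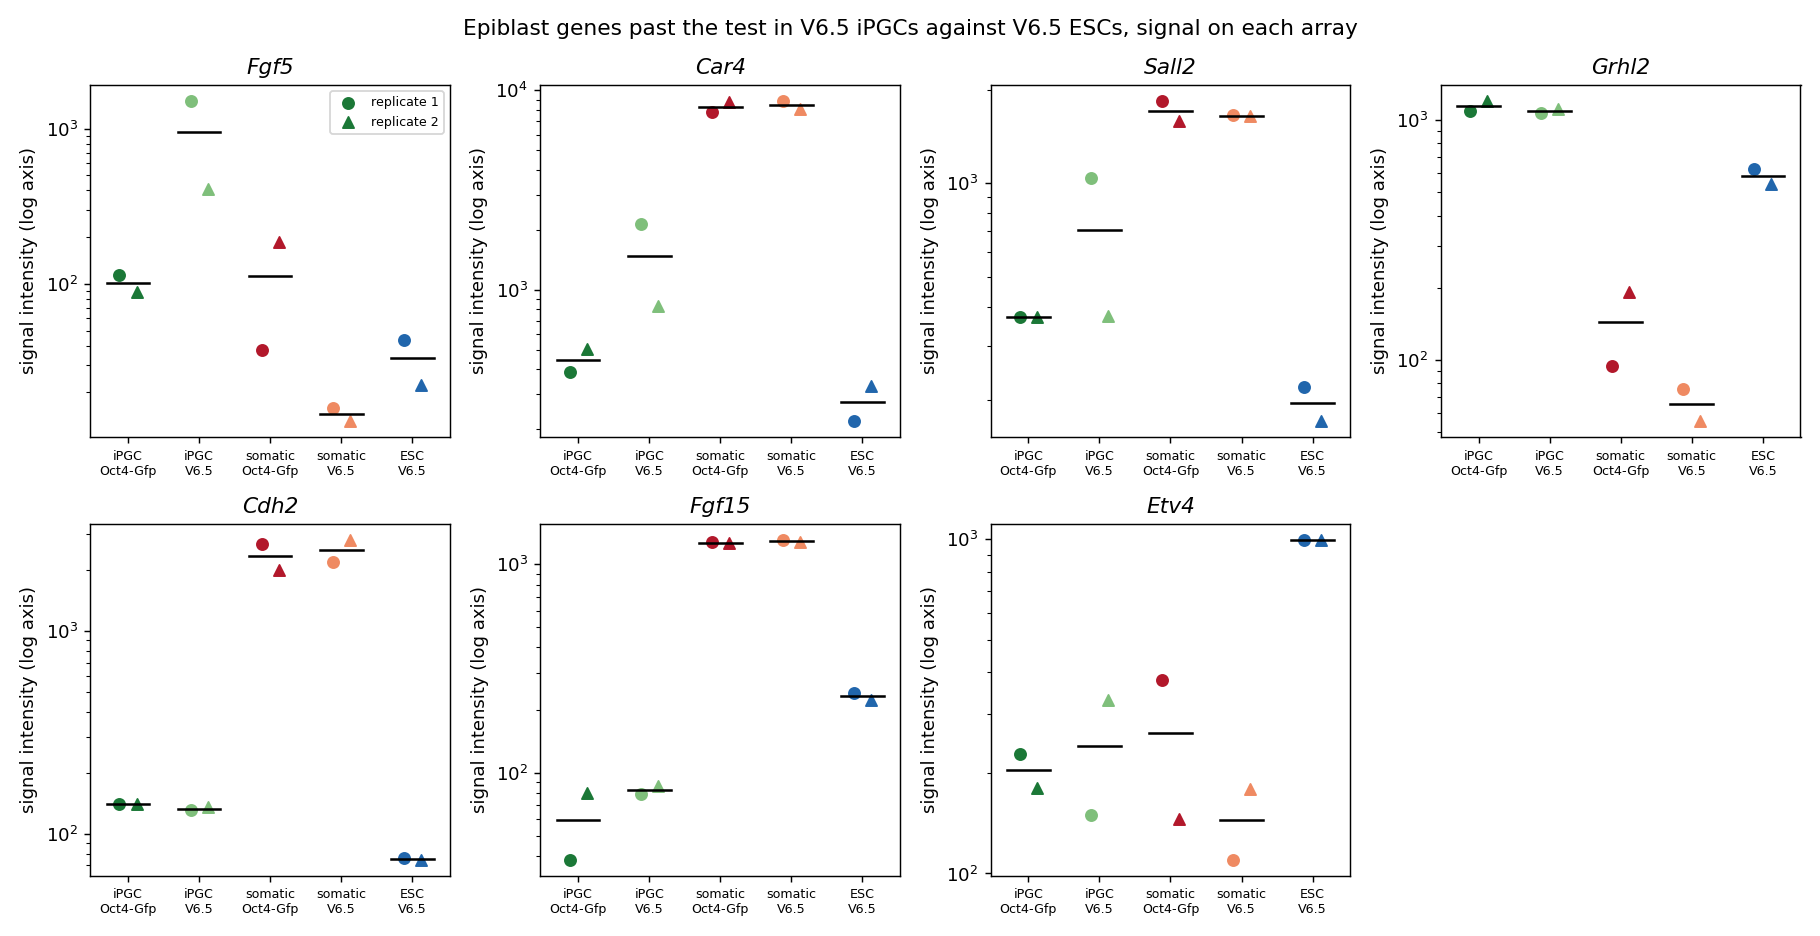
Signal intensity (log axis) of the 7 listed epiblast genes that passed the test in V6.5 iPGCs against ESCs, on each array (circle, replicate 1; triangle, replicate 2; line, group mean). For *Fgf5*, the V6.5 iPGC arrays at 1511 and 407 stand above the other 8 arrays, and for *Fgf5*, *Car4* and *Sall2* replicate 1 is the higher of these 2.

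Of the 19 neural progenitor genes tested from a list of 35, 6 were lower and 1 higher in V6.5 iPGCs than in ESCs (12.9% of all genes lower and 17.3% higher), and the median was 0.07. The lower ones were led by the bHLH factor *Neurod1* (-2.68, limma adjusted p = 0.000208), the homeobox genes *En2* (-2.27) and *Gbx2* (-1.82), and the Notch ligand *Dll1* (-2.01). *Neurod1* gave 29.0 and 20.4 in Oct4-Gfp iPGCs, 34.8 and 33.3 in V6.5 iPGCs, and 274 and 325 in ESCs, so that no iPGC array reached the ESC arrays. *Fabp7*, a fatty acid binding protein of radial glia, was below background in ESCs and at least 3.29-fold higher in V6.5 iPGCs (adjusted p = 0.0198), a call lost without any 1 of the 4 arrays compared. In V6.5 somatic cells against ESCs, 10 of the 19 were lower and 6 higher, beside 31.8% of all genes lower and 30.3% higher. Among the higher ones was *Zeb2*, at least 62.3-fold over ESCs that were below background. The lower ones included *Sox2*, *Olig1* and *Neurod1*, which was below background in V6.5 somatic cells and at least 16.4-fold lower. *Zeb2* is also a factor of mesenchyme, and the mesoderm list rose in the same cells, with summed signals of 35521 to 36119 in V6.5 somatic cells and 773 to 816 in ESCs.

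Of 17 tested neuronal genes on a list of 23, 9 were lower, none higher and 8 not called in V6.5 iPGCs against ESCs (12.9% of all genes lower and 17.3% higher), and their median was -0.73. *Elavl3*, an RNA-binding protein of neurons, differed by -2.26 (limma adjusted p = 0.000601), *Crmp1* by -2.12, *Gap43* by -2.07 and *Stmn2* by -1.95. *Stmn2*, which encodes a microtubule regulator of growing axons, gave 1877 and 2208 in Oct4-Gfp iPGCs, 1920 and 1858 in V6.5 iPGCs, 429.7 and 615 in the Oct4-Gfp somatic cells, 546 and 585 in V6.5 somatic cells, and 7324 and 7389 in ESCs. The 3 sets of arrays did not overlap. Leaving out 1 array at a time gave 7 to 9 lower genes. V6.5 somatic cells were lower than ESCs for 13 of the 17 (31.8% of all genes), led by *Ina* (-4.86) and *Stmn2* (-3.67), and higher for 3 (30.3% of all genes), of which *Isl1* (4.95), a LIM factor also found in heart progenitors, was the first. *Ina*, a neuronal intermediate filament, did not follow *Tubb3* in iPGCs. It gave 1990 and 1374 in Oct4-Gfp iPGCs, 1487 and 1520 in V6.5 iPGCs, and 826 and 954 in ESCs (difference in V6.5 0.75, adjusted p = 0.130).

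**Figure D4:**
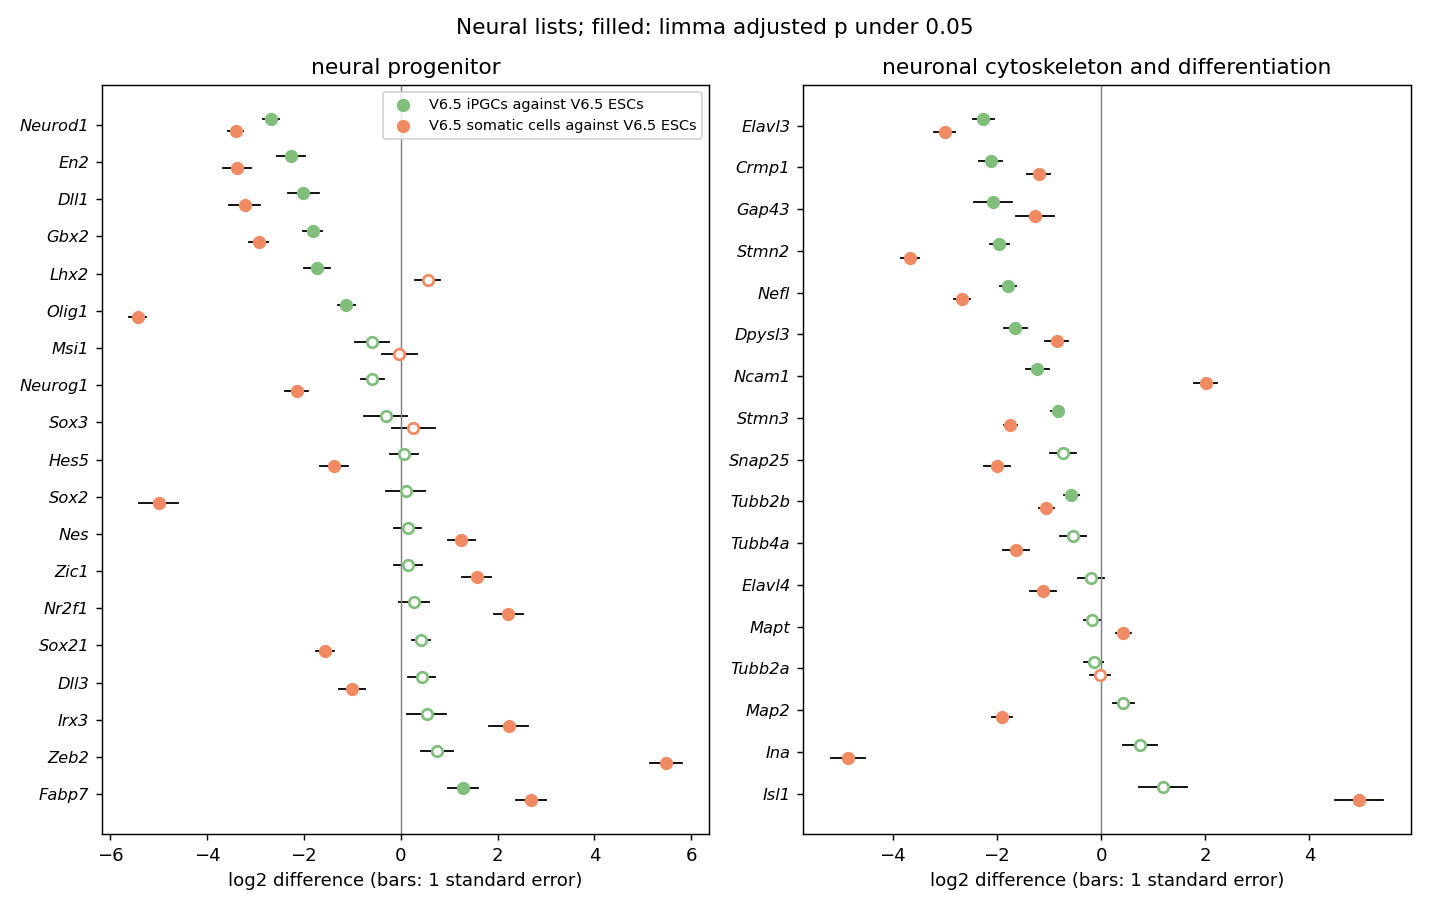
The log2 difference (x axis, bars 1 SE) of each tested gene of the neural progenitor list (left) and the neuronal list (right) in V6.5 iPGCs against ESCs (green) and V6.5 somatic cells against ESCs (orange), filled where the limma adjusted p was under 0.05. Both comparisons share the ESC arrays. In the neuronal list 9 of 17 green points are filled and all 9 lie left of 0.

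Since the ESCs were grown on feeders, a fibroblast list was read beside the members. The ESC arrays are labelled as cells positive for cKit and SSEA. Of 15 tested fibroblast genes on a list of 18, 4 were lower and 2 higher in V6.5 iPGCs than in ESCs (12.9% of all genes lower and 17.3% higher), with *Lox* (at least 8.60-fold) and *S100a4* (-1.79) lower and *Col1a1* (1.49) higher. The summed signal of the list was 6241 to 7169.8 in V6.5 iPGCs and 6728 to 7465 in ESCs, ranges that overlap. Most of each sum was 1 gene, *Fn1*, with means of 5439 in V6.5 iPGCs and 5451 in ESCs. The overlap therefore says little of the other genes. Between 10 and 11 of the 18 were above background in V6.5 iPGCs and 15 to 16 in ESCs. Of 13 tested visceral endoderm genes, 4 were higher and 1 lower in V6.5 iPGCs than in ESCs (17.3% of all genes higher and 12.9% lower), with *Lefty1* (-2.79) lower, and with *Ttr*, *Dkk1* and *Lhx1* below background in ESCs and at least 4.91-fold, 6.20-fold and 2.48-fold higher in V6.5 iPGCs. With 1 array left out, *Ttr* (a log2 difference of 1.74 without replicate 1 of the V6.5 iPGCs and 3.51 without replicate 2) lost its call without either ESC array or replicate 1 of the V6.5 iPGCs, and *S100a4* without ESC replicate 2 or replicate 1 of the V6.5 iPGCs. The part of either list in the values of the members was not tested.

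The 3 genes whose log2 signal was most like that of each member over the 10 arrays were picked by Pearson's r among 12200 tested genes, as a description. For *Otx2* they were *Tmem106a*, *Arhgef16* and the tight junction gene *Cgn* (r = 0.99 each), and for *Zic2* *Camsap3*, *Rcan3* and *Grb7* (0.99 each). The mean signal of *Cgn* was 1152 in Oct4-Gfp iPGCs, 1232 in V6.5 iPGCs, 241 in Oct4-Gfp somatic cells, 169.5 in V6.5 somatic cells, and 789.5 in ESCs. *Hesx1* and *Olig2* shared 2 of their 3, *Apobec3*, a cytidine deaminase, and *Fgf17*, a growth factor of the anterior hindbrain and forebrain (0.99 each). *Fgf17* had means of 87.2 in Oct4-Gfp iPGCs, 100.2 in V6.5 iPGCs, 12.3 in Oct4-Gfp somatic cells, 9.76 in V6.5 somatic cells, and 648 in ESCs. The third was *Apoa2* for *Hesx1* (0.99) and the integrin gene *Itgb7* for *Olig2* (1.00 when rounded). *Tubb3* was closest to *Ndufaf8*, *Icam1* and *Timm10* (0.99 each), *Sox1* to *Hscb*, *Acyp1* and *Slc25a1* (0.98, 0.97 and 0.97), and *Pou3f1* less closely to *AF067061*, *Cdk5r2* and *Ankrd39* (0.92, 0.88 and 0.87). Since the 10 points are 5 populations in pairs, a gene with the same order of populations gives a high r.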

How the data were processed

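Each array was deposited as linear signal intensity, which the authors made with MAS5 per the labels (version not given in the sources used here) and which average 500 on every array after 2% of the probe sets is trimmed at each end. The methods name another program, D-Chip, whose values were not used here. The 64 control probe sets were left out, log2(signal + 14.8) was taken (a fold change on this scale understates the change of low genes), and 26368 of 45037 probe sets were tested, those that exceeded the median signal of the array on 2 or more of the 10 arrays. A gene was represented by its brightest tested probe set, which gave 12207 genes. Symbols came from the platform annotation (34945 probe sets with 1 symbol, 932 with several, 9160 with none), and neighbors and promoter windows from RefSeq, GRCm38.p6.

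One limma model (version 3.58.1, R 4.3.3) held the 5 groups of 2 arrays, with 5 residual degrees of freedom and 2.92 from the prior. Its p-values were corrected over every probe set tested (Benjamini-Hochberg). Changes are called at an adjusted p under 0.05. A group below background on both arrays gives a bound: the mean log2 signal of the bright group is set against the higher of signal and background in the dim group. The bound is a value from group means with no interval, and the adjusted p beside it is of the limma difference. With 2 arrays a group, their number limits the precision. The members and the gene lists were chosen with earlier results of these data known. Named were all members, up to 4 genes a list with the largest called change in the V6.5 comparison, marker genes, and the 3 genes most like each member; others are named as counts of 5 or fewer, as relatives of a member, or after their values were seen. Alternatives changed the offset, the filter, the normalization, the arrays in the fit, the variance model and the replicates.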

Additional observations from a re-analysis of the deposited data

Results flagged for a closer look

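*Pou3f1* stood out because its arrays went opposite ways in the 2 lines. Oct4-Gfp iPGCs differed from Oct4-Gfp somatic cells by -1.33 on the log2 scale (limma adjusted p = 0.101), where the signals were 65.3 and 80.8 in iPGCs against 142 and 292 in somatic cells. V6.5 iPGCs differed from V6.5 somatic cells by 1.36 (adjusted p = 0.0978), where they were 610.4 and 144 in iPGCs against 82.8 and 140.3 in somatic cells. In neither line did the arrays overlap, although in V6.5 the nearest arrays were 144 and 140.3. The difference between the lines was -2.68 (95% interval -4.62 to -0.74), with an unadjusted p of 0.0128 in limma and an adjusted p of 0.383, so it did not pass. Over 19 alternatives that difference ran from -3.67 to -1.69, with adjusted p from 0.185 to 0.705. With either V6.5 iPGC array left out, the Oct4-Gfp comparison passed (adjusted p = 0.0163 and 0.0161), and without replicate 2 of the V6.5 iPGCs the V6.5 comparison did too (2.35, adjusted p = 0.00484). Without replicate 1 of the V6.5 iPGCs the V6.5 difference was 0.37.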

How the results depend on the processing

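Of 917 alternatives of 49 gene results, 871 kept direction and call, 12 lost the call, 20 gained it and 14 changed sign. All 12 losses were of *Sox1* in V6.5 iPGCs against V6.5 ESCs (adjusted p 0.0520 to 0.166). Alternatives under which a gene was not tested are not among the 917. These were the stricter filter for *Hesx1*, *Sox1* and *Olig2*, and the fits without either ESC array for *Olig2*. With the stricter filter the count of members called was 1 in V6.5 iPGCs against ESCs, 3 in V6.5 somatic cells against ESCs, 2 in V6.5 iPGCs against V6.5 somatic cells and 3 in Oct4-Gfp iPGCs against Oct4-Gfp somatic cells, since *Hesx1*, *Sox1* and *Olig2* were then not tested. With limma-trend it was 1 for Oct4-Gfp against V6.5 iPGCs. Leaving out 1 array gave counts of 2 to 4 for V6.5 iPGCs against ESCs, 5 to 7 for V6.5 somatic cells against ESCs, and 4 to 6 for iPGCs against somatic cells in either line. The results that changed sign had not been called, and the cause was not tested. *Hesx1* in the difference between lines was 0.30 with a floor, 0.0063 with the doubled offset, 0.31 with quantile normalization, 0.0505 with median centring, -0.38 to 0.17 with 1 array left out (0.17 without Oct4-Gfp iPGC replicate 1, 0.10 without V6.5 somatic replicate 2). For Oct4-Gfp against V6.5 iPGCs, quantile normalization gave 0.13 for *Olig2* and 0.0043 for *Tubb3*. *Tubb3* there was 0.0756 with median centring and -0.38 to 0.21 with 1 array left out (0.21 without V6.5 iPGC replicate 2, 0.03 without Oct4-Gfp iPGC replicate 1), and *Hesx1* was -0.0233 to 0.53, lowest without Oct4-Gfp iPGC replicate 2. *Otx2* in Oct4-Gfp against V6.5 somatic cells was -0.14 to 1.10, lowest without V6.5 somatic replicate 2, and *Pou3f1* in V6.5 iPGCs against ESCs was -1.16 to 0.82, highest without V6.5 iPGC replicate 2. Replicates of different groups share only a number: over 10 pairs of groups their deviations correlated at -0.29 to 0.26, with 2 over 0.1. With the replicate number as a block the counts were 3 (*Sox1* at adjusted p = 0.0626) for V6.5 iPGCs against ESCs and 6, 5, 5, 0, 0 and 0 for the others, as without it. Signals near background limit *Pax6*, the dim probe set of *Sox1*, and the somatic values of *Hesx1*, *Sox1* and *Olig2*.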

Other observations

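Genes of naive pluripotency, the state before the formative epiblast, were compared between V6.5 iPGCs and ESCs. Of 13 tested genes 6 were lower, none higher and 7 not called (12.9% of all genes lower and 17.3% higher), with a median of -0.54. The lower ones were led by the Kruppel-like factor *Klf5* (-1.71 on the log2 scale, limma adjusted p = 0.00144), the nuclear receptor gene *Nr0b1* (-1.69, adjusted p = 0.0143) and *Klf4* (-1.38, adjusted p = 0.0222). Some genes not called had higher signals in V6.5 iPGCs. *Dppa3* gave 6825 to 6987 there and 3394 to 3947 in ESCs, and *Klf2* gave 3415 to 3493 and 2518 to 3004. Of 8 genes shared by ESCs and germ cells, among them *Pou5f1* and *Nanog*, none passed in that comparison, and the median was -0.17. Their signals were not all equal. *Pou5f1* gave 3367 to 3831 in V6.5 iPGCs and 5335 to 6505 in ESCs, while *Sall4* gave 8776 to 8991 and 6726 to 6906. *Nanog* overlapped, with 6208 to 6491 in V6.5 iPGCs and 6419 to 6724 in ESCs. Of 17 tested mesoderm and heart genes, 11 were higher and none lower in V6.5 iPGCs than in ESCs (17.3% of all genes higher and 12.9% lower), with summed signals of 3571 to 4558 in V6.5 iPGCs and 773 to 816 in ESCs. Against V6.5 somatic cells, whose sums were 35521 to 36119, 14 were lower in V6.5 iPGCs and 1 higher (24.2% of all genes lower and 27.3% higher). The paper proposes that iPGCs repress mesoderm genes. It drew this from a cluster, by D-Chip values, that was low in both iPGCs and ESCs beside somatic cells. The comparison with somatic cells is the one nearer to that reading. Whether somatic cells carried over in the sort add to the iPGC values was not tested.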
